A study of Homo sapiens with 4 samples.

Results

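Genes of erythroid and stem-cell transcription factors, 10 of the 58735 genes in the expression table, were followed here. They were chosen by name, as the genes whose identifiers carry the symbols GATA1, GATA2, ZFPM1, KLF1, TAL1, LMO2, LDB1, NFE2, GFI1B and GFI1 in GENCODE release 44. RNA-seq had been performed on 4 libraries labelled NB4, a human line derived from a promyelocytic leukemia, 2 from control cells labelled as having no treatment and 2 from cells treated with GNE-987 at 25 nM for 24 h. GNE-987 is a chimeric degrader that carries BET bromodomain proteins to a ubiquitin ligase. The dose and the time are those the study gives for this comparison, and labels give the treatment of each library. All libraries share the same labelled line, obtained from a cell bank, and neither the labels nor the methods say that the replicates came from separate cultures, so that P values measure the spread between libraries, which may be technical.

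In control cells, 9 of the 10 genes were expressed, at mean levels from 10.2 FPKM for ZFPM1 to 123 FPKM for GATA1. FPKM is the number of fragments on a gene scaled by the gene's length and by the library. After GNE-987 treatment these 9 genes had lower values in both treated libraries than in either control library, and 8 were called lower by limma at the study's thresholds, an unadjusted P value below 0.05 with a fold change past 2. NFE2 fell most, 17.9-fold, followed by GATA1 with 8.89-fold and GFI1B with 7.11-fold. TAL1, 1.68-fold lower, did not reach a fold change of 2. The 10th gene, GFI1, was close to 0 in every library.

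These factors work together in blood formation. GATA1 and GATA2 are zinc finger proteins that bind the word GATA in DNA, and in erythroid cells they act with FOG1, the product of ZFPM1, and with a complex in which TAL1 binds DNA with an E protein while LMO2 and LDB1 join it to the GATA factor and to distant enhancers. GATA2 is known for the maintenance of stem and progenitor cells and GATA1 for red cell and platelet lineages, and a replacement of GATA2 by GATA1 at shared sites accompanies erythroid maturation.

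Several facts of the libraries bear on the values. The depth recovered from the values was 19501810 and 19305561 gene reads for control and 12471772 and 12979916 for GNE-987, so that low values are less precise after treatment. Mitochondrial genes took 3.74% and 4.53% of the reads in control and 15.5% and 15.1% with GNE-987, and the deposited values had been scaled to 1.18 and 1.15 times the reads on genes in control but to 0.670 and 0.680 times with GNE-987. The part of these differences in the results below was not tested, but values under other scalings are given below for the factors and for list genes that turned or lost their call. The control libraries showed little or no RNA of most granule genes of the labelled cell type. NB4 is used here as the label of the libraries and not as an identity checked from the data. Of 15 granulocyte and promyelocyte markers, CTSG, S100A8, S100A9 and LTF were listed at 0 in all libraries, and MPO, the myeloperoxidase of the granules, was at 0.0246 and 0 FPKM in control. Low levels in control were seen for AZU1 (2.07 and 2.10 FPKM), LYZ (2.02 and 1.59) and PRTN3 (0.341 and 0.710). The summed level of the 15 markers was 34.4 and 32.0 FPKM in control, of which the complement gene CFD made 28.9 and 26.5, and 115 and 122 FPKM with GNE-987. In bulk RNA, fewer cells of a type and less RNA per cell cannot be told apart.

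The promoters of 8 of the 10 genes were matched in the RefSeq table of GRCh38.p14, all but those of LMO2 and NFE2, with 13 start sites. They were searched over the 250 bases before each start for the word GATA with A or T before it and A or G after the last letter, which makes 4 words of 6 bases from AGATAA through to TGATAG, on either strand. Such a word occurred in 3 of the 13 windows (23.1%) and in 22.3% of the 35116 windows of all genes, so that the share is near that background. The windows with a match are shown because they belong to 3 factor genes that themselves work with GATA proteins, and KLF1 was the only one with more than 1 match. The match nearest to the start lay 13 bases before it in KLF1, 35 bases before it in TAL1 and 116 bases before it in GFI1B, and a further match lay 66 bases before the start of KLF1. Capitals mark the GATA words, read on the strand of the gene, where a word on the opposite strand ends in ATCA or ATCT. The windows of KLF1 (chr19:12887202-12887451, minus strand) and TAL1 (chr1:47232336-47232585, minus strand) overlap no annotated exon. For GFI1B only the 30 bases around the word are given (chr9:132978566-132978595, plus strand), since its window overlaps exons.
KLF1: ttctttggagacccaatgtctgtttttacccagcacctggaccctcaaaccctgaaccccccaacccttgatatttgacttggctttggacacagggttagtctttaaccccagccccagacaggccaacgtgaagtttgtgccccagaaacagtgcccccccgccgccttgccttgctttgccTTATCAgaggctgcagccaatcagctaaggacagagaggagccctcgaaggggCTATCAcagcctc
TAL1: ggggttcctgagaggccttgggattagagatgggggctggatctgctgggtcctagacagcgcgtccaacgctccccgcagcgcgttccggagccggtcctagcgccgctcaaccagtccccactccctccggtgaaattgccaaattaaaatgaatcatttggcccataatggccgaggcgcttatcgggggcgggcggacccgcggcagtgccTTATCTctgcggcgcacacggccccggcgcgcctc
GFI1B: cctggaaagtttTGATAAgcaaatacggct
The E-box CAGATG, on either strand, was found in 2 of the 13 windows and in 12.2% of all windows. The words CCACACCC, CCACGCCC, CCCCACCC and CCCCGCCC, forms of the CACCC box that KLF1 binds, were found on either strand in 5 of the 13 windows and in 32.8% of all windows. These matches describe the letters of the windows and not binding.

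GATA1 (ENSG00000102145, X chromosome, 48786540 to 48794311, plus strand, GRCh38), the master regulator of erythroid genes, had 124 and 122 FPKM in control and 15.1 and 12.5 FPKM after treatment. The groups lay far apart, with 11.2% of the control level left. Mean levels were 123 ± 1.43 FPKM in control and 13.8 ± 1.79 FPKM with GNE-987 (SD, n = 2 each), resting on 4275 and 4040 reads in control and 189 and 166 with GNE-987. The log2 fold change was -3.15 ± 0.103 (SE, adjusted P = 0.000191, limma with Benjamini-Hochberg correction across all tested genes).

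GATA2 (ENSG00000179348, chromosome 3, 128479427 to 128493201, minus strand) had 73.6 and 71.2 FPKM in control but 28.0 and 28.5 FPKM with GNE-987. It was thus the GATA factor that kept more of its RNA, at 39.0% of the control level, although the groups again did not overlap. Its means were 72.4 ± 1.73 FPKM and 28.2 ± 0.358 FPKM (SD, n = 2 each), and the log2 fold change was -1.36 ± 0.0427 (SE, adjusted P = 0.000183, limma). The other GATA genes, GATA3 to GATA6, were below the filter on low values, an average of 0.5 FPKM or more across the 4 libraries.

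ZFPM1 (ENSG00000179588, chromosome 16, 88453280 to 88537031, plus strand), which encodes the GATA partner FOG1, was the lowest of the 9 expressed genes. Its level was 10.4 and 10.03 FPKM in control but 1.47 and 1.67 FPKM after treatment, on 75 and 90 reads. The level fell 6.53-fold (log2 fold change -2.63 ± 0.101, SE, adjusted P = 0.000229, limma with Benjamini-Hochberg correction). Its relative ZFPM2, which encodes FOG2, was at 3.58 and 3.67 FPKM in control and 0.769 and 0.568 FPKM with GNE-987 and was also called lower.

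KLF1 (ENSG00000105610, chromosome 19, 12884422 to 12887201, minus strand) encodes the erythroid factor that binds CACCC boxes, among them that of the beta-globin promoter. It was at 85.2 and 85.9 FPKM in control but at 27.3 and 24.8 FPKM with GNE-987. The control libraries lay close together, with a mean of 85.6 ± 0.457 FPKM (SD, n = 2), and 30.5% of that level was left in the treated ones. The log2 fold change was -1.71 ± 0.0625 (SE, limma, adjusted P = 0.000216).

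Of TAL1, LMO2 and LDB1, TAL1 itself had the smallest difference. TAL1 (ENSG00000162367, chromosome 1, 47216290 to 47232225, minus strand) had 12.5 and 14.0 FPKM in control and 8.14 and 7.65 FPKM with GNE-987. The treated libraries were both below the control libraries, yet 59.4% of the level was left. The log2 fold change of -0.74 (standard error 0.0851, adjusted P value 0.00250 by limma) stood at the 38.4th percentile of all tested protein-coding genes, and the median protein-coding gene had -0.29. TAL1 passed the fold threshold when values were scaled to the total of recovered reads, with -1.52, or to GAPDH, with -2.58.

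LMO2 (ENSG00000135363, chromosome 11, 33858576 to 33892076, minus strand), the bridging LIM-only protein, was at 14.2 and 14.8 FPKM in control, close to TAL1. With GNE-987 it was at 3.19 and 2.44 FPKM on 83 and 67 reads, a fall of 5.14-fold to below TAL1. The log2 fold change was -2.33 ± 0.151 (SE, adjusted P = 0.000603, limma), with the largest SE of the 9 genes. LDB1 (ENSG00000198728, chromosome 10, 102106489 to 102120368, minus strand), the LIM-binding protein that holds enhancer and promoter together, was the most abundant subunit at 75.8 and 77.0 FPKM in control and 22.8 and 21.8 FPKM with GNE-987. Its log2 fold change was -1.77 ± 0.0450 (SE, limma, adjusted P = 0.000143).

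NFE2 (ENSG00000123405, chromosome 12, 54292111 to 54301015, minus strand) encodes the large subunit of a factor that acts with small MAF proteins on globin and platelet genes. Its level was 58.6 and 52.9 FPKM in control, from 3333 and 2889 reads, but 3.25 and 2.98 FPKM after treatment, from 67 and 65 reads. Of its control level 5.58% was left, the least of the 9 genes, and only 0.0728% of tested protein-coding genes had a lower log2 fold change. The log2 fold change was -4.12 ± 0.0843 (SE, adjusted P = 0.000117, limma with Benjamini-Hochberg correction).

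GFI1B (ENSG00000165702, chromosome 9, 132944000 to 132991687, plus strand), a repressor of erythroid and megakaryocyte cells, was at 14.8 and 12.9 FPKM in control and 1.88 and 2.02 FPKM with GNE-987. The fall was 7.11-fold with no overlap (log2 fold change -2.77 ± 0.105, SE, adjusted P = 0.000229, limma). Its paralogue GFI1 (ENSG00000162676, chromosome 1, 92473043 to 92486925, minus strand), better known from granulocytes and stem cells, was at 0.0526 and 0.0137 FPKM in control. With GNE-987 it was listed at 0 in replicate 1, where a count of 0 allows up to 3 reads, and at 0.206 FPKM in replicate 2, on at most 12 reads. GFI1 did not pass the filter, and without the filter limma gave a log2 fold change of 0.41 ± 0.666 (SE) and an adjusted P value of 0.631, so that no difference was detectable at this depth.

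**Figure D1:**
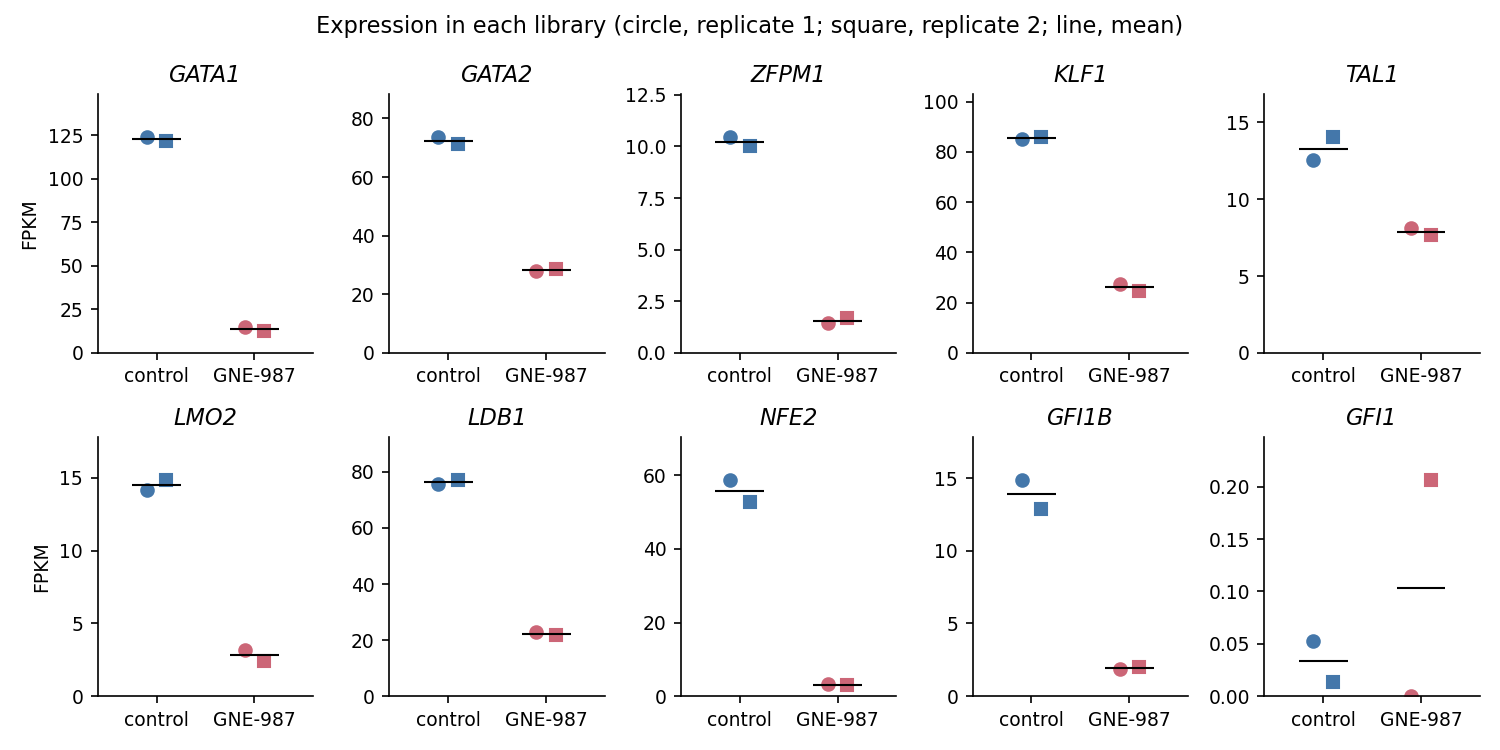
FPKM (y axis, from 0, a separate scale for each gene) of the 10 transcription factor genes in control and GNE-987-treated libraries (x axis), with circles for replicate 1, squares for replicate 2 and lines for the means of 2. For 9 genes both treated libraries lie below both control libraries, while GFI1 reaches at most 0.206 FPKM and its groups overlap.

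Of the 9 genes tested, 8 were called lower, against 24.9% of the 16668 genes tested and 31.7% of the 10996 protein-coding genes tested. None was called higher, and none was higher at an unadjusted P value under 0.05 alone by limma, against 33.6% of all tested genes called higher. The adjusted P values of the 9 genes ran from 0.000117 to 0.00250 (limma, Benjamini-Hochberg), below 0.05 in all. In 41.6% of all tested genes both treated libraries lay below both control libraries and in 47.5% both lay above, so that the lack of overlap is common in these data. The median log2 fold change of the 9 genes was -2.33, against 0.17 for all tested genes and -0.29 for the protein-coding ones. The genes were picked by name with earlier results of these data known, and each had to be expressed to be tested.

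The order of the factors by FPKM, which depends on the gene lengths used, differed between the groups. In control cells GATA1 stood above KLF1, LDB1, GATA2 and NFE2 in that order, with no overlap between neighbours, and LMO2, GFI1B and TAL1 followed at 14.5, 13.9 and 13.3 FPKM. Of these 3, LMO2 and GFI1B overlapped, as did GFI1B and TAL1, and ZFPM1 lay below them. With GNE-987, GATA2 led, followed by KLF1, LDB1, GATA1 and TAL1, with no overlap between neighbours. NFE2 and LMO2 came next and overlapped, above GFI1B and ZFPM1.

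Ranked by FPKM among the 10996 tested protein-coding genes of each library, GATA1 was at the 98.4th percentile in both control libraries and at the 79.2nd and 76.1st with GNE-987. This was a move from ranks 177 and 179 to ranks 2292 and 2626. NFE2 left the upper tail for the middle, from the 95.5th and 95.0th percentiles to the 44.6th and 42.4th. ZFPM1 and GFI1B fell from the 69.1st, 67.8th, 77.3rd and 74.3rd percentiles to the 23.5th, 27.0th, 30.1st and 32.0th. GATA2, at the 96.6th percentile in both control libraries, was still at the 87.5th in both treated ones, and TAL1 moved from the 73.6th and 76.3rd to the 67.5th and 66.2nd. A rank within a library does not depend on how the library was scaled.

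**Figure D2:**
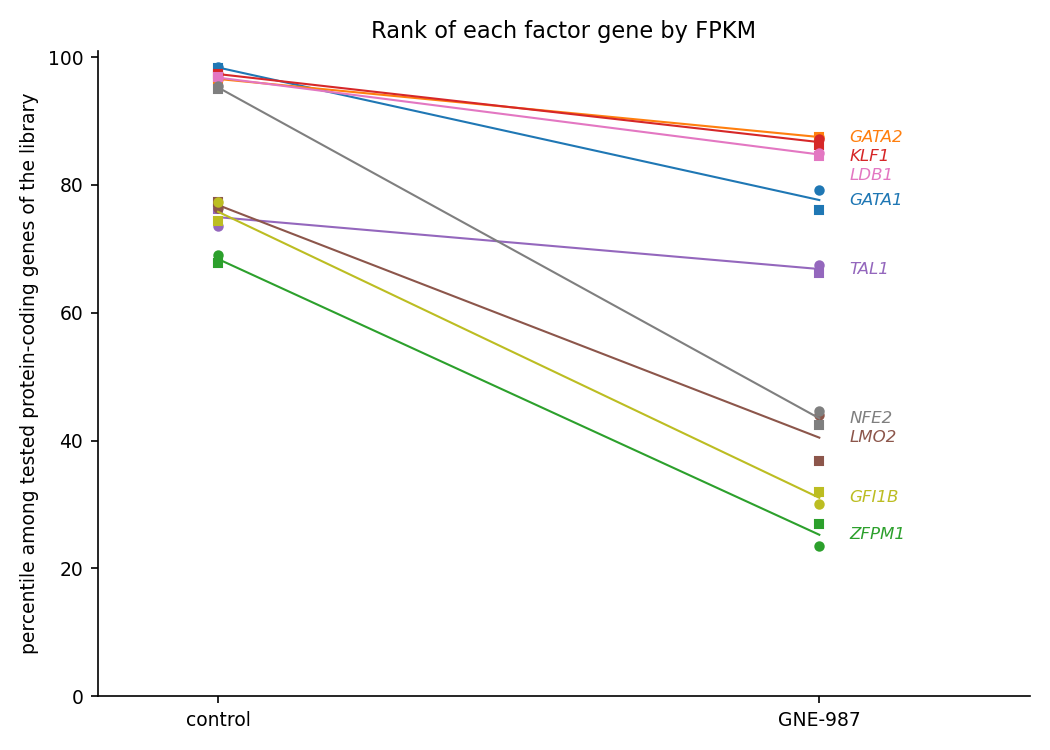
Percentile of each of the 9 expressed factor genes by FPKM among the 10996 tested protein-coding genes of the same library (y axis) in control and GNE-987-treated libraries (x axis), with circles for replicate 1, squares for replicate 2 and lines joining the means. NFE2 drops from the 95.5th and 95.0th percentiles to the 44.6th and 42.4th, and TAL1 has the flattest line.

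Ratios between genes of the same library, which a rescaling of whole libraries can move only through the pseudocount, were compared next, as log2 ratios of FPKM + 0.1. By FPKM, GATA1 and GATA2 changed places. The log2 ratio of GATA1 to GATA2 was 0.75 and 0.77 in control and -0.89 and -1.18 with GNE-987, so that GATA1 was the higher in both control libraries and the lower in both treated ones. The difference was -1.79 ± 0.111 (SE, adjusted P = 0.000262, limma refitted on the ratios with Benjamini-Hochberg correction across all tested genes). With the standard errors of both genes combined, an alternative added after the data were seen, the adjusted P value was 0.000359.

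TAL1 and LYL1, closely related basic helix-loop-helix factors, also changed places. LYL1 was at 66.9 and 59.3 FPKM in control and 3.87 and 3.92 FPKM with GNE-987, and the log2 ratio of TAL1 to LYL1 went from -2.40 and -2.07 to 1.05 and 0.95. The difference of 3.24 had an SE of 0.150 (adjusted P = 6.03e-06, limma, or 8.88e-05 with both standard errors combined). Within the complex, the ratio of TAL1 to LDB1 rose, from -2.59 and -2.45 to -1.475 and -1.501, a difference of 1.03 ± 0.0761 (SE, limma, adjusted P = 0.000526, or 0.00111 with both standard errors combined).

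The remaining ratios moved less or with more spread. That of LMO2 to LDB1 went from -2.41 and -2.37 to -2.80 and -3.11, a difference of -0.56 ± 0.131 (SE) and an adjusted P value of 0.0187 by limma, which became 0.0847 without control replicate 1 and 0.101 without control replicate 2. A pseudocount of 1 gave a difference of -0.30. That of GATA1 to its cofactor gene ZFPM1 went from 3.55 and 3.59 to 3.27 and 2.84, a difference of -0.52 ± 0.167 (SE). Its adjusted P value by limma was 0.0340, but 0.0546 without control replicate 2 and 0.0653 with a pseudocount of 0.01, and a pseudocount of 1 gave a difference of -0.94. The ratio of GATA1 to SPI1, the gene of the myeloid factor PU.1 that GATA1 opposes, was 4.02 and 4.40 in control and 1.63 and 1.92 with GNE-987, so that GATA1 stayed above SPI1 in all libraries. This difference was -2.43 ± 0.454 (SE, limma, adjusted P = 4.2e-07, or 0.00170 with both standard errors combined). SPI1 itself was at 7.52 and 5.68 FPKM in control and 4.80 and 3.23 FPKM with GNE-987, an adjusted P value of 0.0653 by limma.

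**Figure D3:**
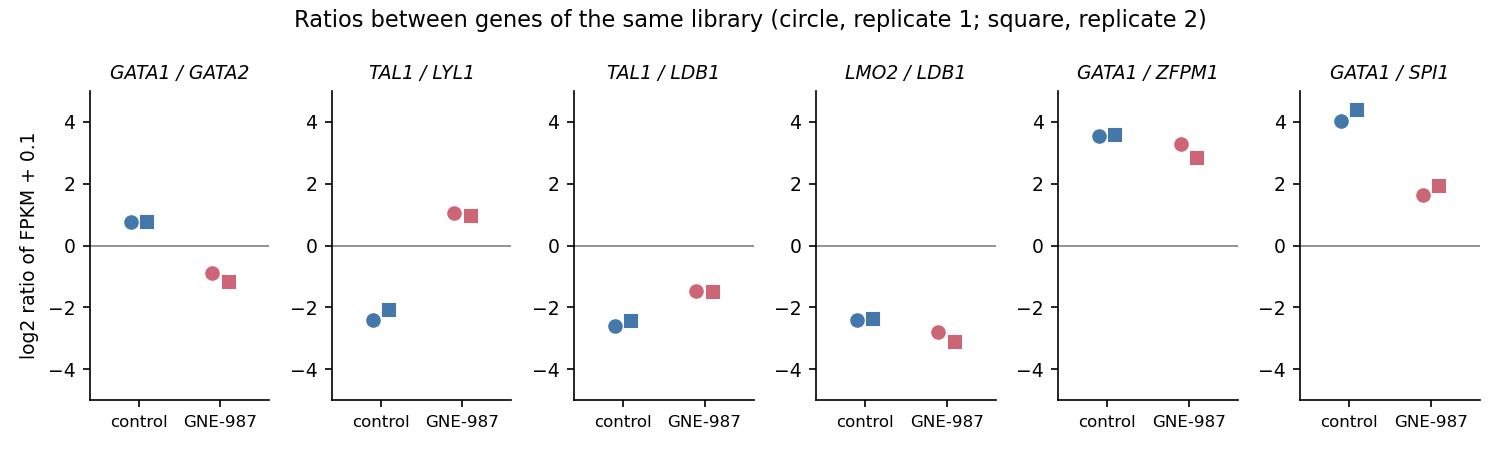
Log2 ratio of FPKM + 0.1 between genes of the same library (y axis, the same scale in each panel, with a line at 0) for 6 gene pairs in control and GNE-987-treated libraries (x axis), with circles for replicate 1 and squares for replicate 2. The ratio of GATA1 to GATA2 crosses from above 0 to below it and that of TAL1 to LYL1 from below 0 to above it.

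Other scalings moved the size of the fall but not its direction. Log2 fold changes ran from -4.12 to -0.74 for the 9 genes with the deposited scaling. For NFE2 the value was -4.57 with quantile normalization, -4.89 with the total of recovered reads as the scale and -5.93 with scaling to GAPDH, whose own level was 398 and 432 FPKM in control and 1501 and 1499 FPKM with GNE-987. For GATA2 the same alternatives gave -1.93, -2.14 and -3.20. The median of all tested genes moved too, from 0.17 to -0.24, -0.57 and -1.59, and under each of these scalings all 9 genes lay below it. Relative to that median, the nearest of the 9 was at -0.92 with the deposited scaling, -0.53 with quantile normalization, -0.95 with the total of recovered reads and -0.98 with GAPDH.

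**Figure D4:**
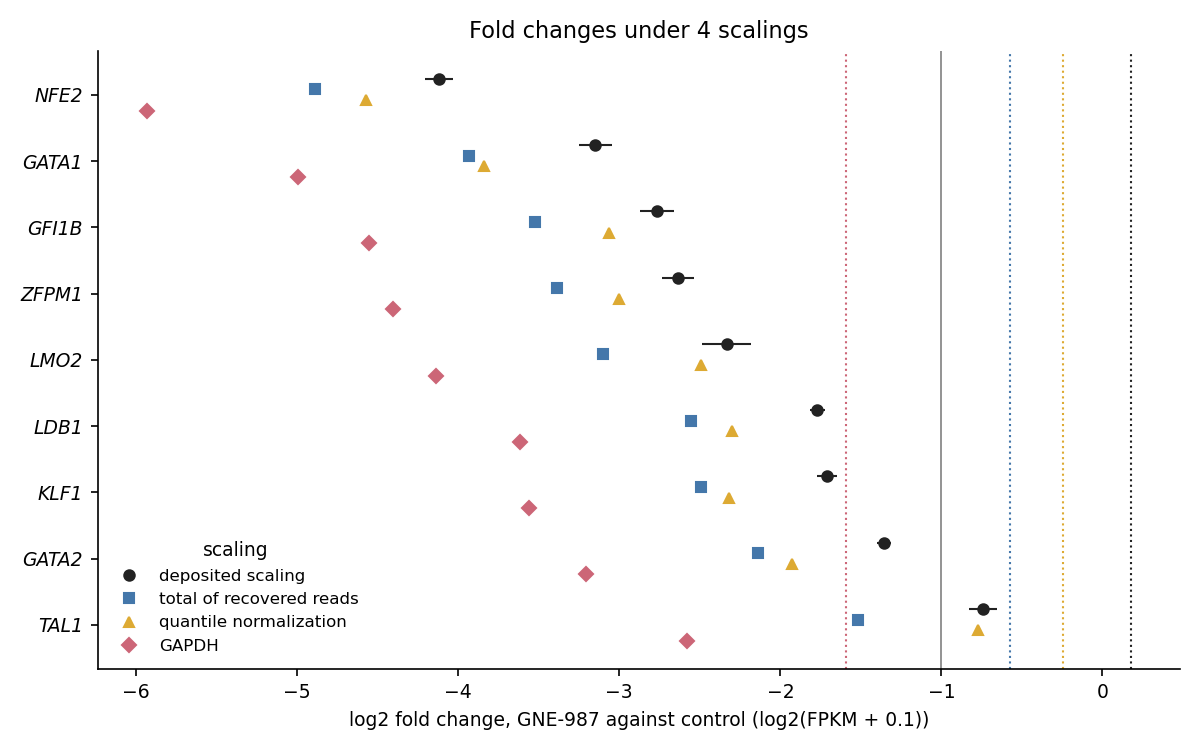
Log2 fold change, GNE-987 against control, on the log2(FPKM + 0.1) scale (x axis) for the 9 tested factor genes (y axis) under 4 scalings, with standard errors for the deposited scaling. Dotted lines show the median of all tested genes under each scaling and the grey line a log2 fold change of -1, which TAL1 alone does not pass with the deposited scaling (-0.74) and with quantile normalization (-0.78).

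The genes that work with these factors were examined as lists, whose shares of called genes are to be read beside the 24.9% lower and 33.6% higher of all tested genes and the 31.7% and 24% of the protein-coding ones. Of 14 tested partners and relatives of the TAL1 complex (19 listed), 8 were lower and 2 higher, with a median log2 fold change of -1.08, and with the total of recovered reads as the scale 10 were lower and 0 higher. TCF3, whose product is the E protein partner of TAL1, fell from 46.4 and 45.7 FPKM to 13.4 and 14.6 FPKM. The single-stranded DNA-binding proteins that stabilise LDB1 were split, since SSBP4 fell from 41.5 and 39.5 to 18.9 and 17.4 FPKM while SSBP3 rose from 14.9 and 14.6 to 34.2 and 33.7 FPKM. With scaling to GAPDH the log2 fold change of SSBP3 turned from 1.195 to -0.65, and with the total of recovered reads it was 0.41.

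Of 13 tested GATA and FOG relatives and cofactors (17 listed), 4 were lower and 1 was higher, with a median of -0.93, and with the total of recovered reads as the scale 10 were lower and 0 higher. MED1, a Mediator subunit that binds GATA1, fell from 18.6 and 23.6 to 3.80 and 3.28 FPKM, and MTA2 of the NuRD complex, which FOG1 recruits, fell from 55.3 and 56.8 to 26.6 and 28.1 FPKM. RBBP7 of the same complex was at 27.2 and 26.2 FPKM in control and 20.7 and 21.2 with GNE-987 and did not pass. BRD2, itself a BET protein, was the higher gene, at 34.4 and 36.5 FPKM in control and 119.6 and 120.1 FPKM with GNE-987, with a log2 fold change of 1.76 that became -0.10 with scaling to GAPDH.

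The corepressors that GFI1B and GFI1 recruit were lower in 7 of 10 tested genes (24.9% of all tested genes) and higher in 0, with a median of -1.24. The demethylase gene KDM1A fell from 37.5 in both control libraries to 18.1 and 17.7 FPKM and its partner RCOR1 from 13.1 and 14.4 to 5.52 and 5.86 FPKM. HDAC1 (log2 fold change 0.28) and HMG20B (-0.10) did not pass. HDAC1 was the 1 gene of the 10 that was higher at an unadjusted P value under 0.05 by limma, with a log2 fold change that turned to -0.50 with the total of recovered reads and to -1.57 with GAPDH. With GAPDH all 10 genes were lower, and none was called higher with scaling to GAPDH, to the total of recovered reads or with quantile normalization.

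Of 7 tested partners and relatives of NFE2 (8 listed), 1 was lower (14.3%) and 2 were higher (28.6%), shares that do not stand above those of all tested genes, with a median of 0.31, and with scaling to GAPDH 5 were lower and 1 was higher. NFE2L3, a paralogue with the same type of DNA-binding domain, rose from 3.03 and 2.74 FPKM to 50.9 and 49.0 FPKM (log2 fold change 4.07 ± 0.0731, SE; limma, adjusted P = 0.000105), which was 2.24 with scaling to GAPDH. NFE2 was thus the higher of both paralogues in each control library and the lower in each treated library. The small MAF genes MAFG (0.31) and MAFK (0.78) and the stress factor gene NFE2L2 (0.16) did not pass the thresholds, and their log2 fold changes were -1.53, -1.07 and -1.69 with GAPDH.

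Of 7 tested stem and progenitor cell genes (12 listed, LYL1 and RUNX1 also among the TAL1 relatives), 3 were lower and 1, HLF, which was under 0.5 FPKM in control, was higher, with a median of -0.88, and with the total of recovered reads as the scale 5 were lower. MYB, needed by progenitors of all blood lineages, fell from 27.9 and 30.1 to 1.11 and 1.79 FPKM. RUNX1 (log2 fold change -0.51) and HHEX (0.86) did not pass the thresholds. CD34, FLI1 and ERG, whose products mark or maintain blood stem cells together with GATA2, were listed at 0 in all 4 libraries, and KIT was at 0.320 and 0.349 FPKM in control.

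Of 29 tested erythroid genes (35 listed), many of them known targets of GATA1 and KLF1, 9 were lower (31.0%) and 10 higher (34.5%), which is near the shares of all tested genes, with a median of -0.39, while 15 were lower and 5 higher with the total of recovered reads as the scale. TFRC, the transferrin receptor, was at 243 and 270.1 FPKM in control and 185 and 177 FPKM with GNE-987, and RHAG at 144 and 143 FPKM and 85.6 and 81.0 FPKM, neither past a fold of 2 with the deposited scaling but at log2 fold changes of -1.29 and -1.57 with the total of recovered reads. The 9 lower genes included HEMGN, ANK1, SLC25A37, EPOR, BCL2L1, E2F2 and XK, named after their values were seen, which serve the red cell membrane, iron and erythropoietin response among other roles. EPOR, the erythropoietin receptor, fell from 7.43 and 7.61 to 1.09 and 0.736 FPKM.

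Of the 10 higher erythroid genes, 8 were globin genes and the others ALAS2, of heme synthesis, and AHSP, the chaperone of alpha-globin. The log2 fold change of ALAS2, 1.24, was 0.46 with the total of recovered reads and -0.60 with GAPDH. HBB, HBM and AHSP averaged under 0.5 FPKM in control and passed the filter only through the treated libraries, so that they had to differ and their calls support nothing. Among the 26 genes at or above 0.5 FPKM in both groups, 9 were lower and 7 higher, where 28.2% of all genes at that level in both groups were lower and 19.7% higher. For protein-coding genes at that level the shares were 32.4% and 16.3%. HBA1 rose from 43.8 and 45.4 to 180.2 and 152 FPKM and HBA2 from 109.8 and 74.9 to 301 and 263 FPKM, and their reads are uncertain because the copies are nearly identical. HBG2 is uncertain too, since its control libraries lay far apart, at 6.30 and 15.8 FPKM. Its annotated span also overlaps that of HBE1 on the same strand, and its paralogue HBG1 had a log2 fold change of -0.19 with GAPDH. The globin calls depended on the scaling. Of the 9 tested globin genes, 8 were called higher with the deposited scaling and 4 with the total of recovered reads. The number was 4 with quantile normalization and 2 with GAPDH, where 5 had a negative log2 fold change. HBB and HBM are among the 9, so that fewer of these calls can be read. With the total of recovered reads, the 4 were HBA1, HBG2, HBB and HBM. With GAPDH, only HBB (2.40), HBM (2.21) and HBG2 (1.195) had log2 fold changes past the fold threshold. The 2 genes called with GAPDH are among these, and which was not called is not given here. HBB and HBM cannot be read as calls, so that no readable globin call is claimed with GAPDH.

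The lists of megakaryocyte and granulocyte genes are given as levels only, because 6 of the 7 tested megakaryocyte genes and 4 of the 8 tested granulocyte genes averaged under 0.5 FPKM in 1 group and passed the filter only through the group where they are high. Of 17 megakaryocyte targets listed, 7 were tested, of which GP1BA alone averaged at least 0.5 FPKM in both groups. GP1BA was at 0.903 and 0.940 FPKM in control and 2.49 and 2.54 FPKM with GNE-987, and its log2 fold change of 1.355 became 0.62 with the total of recovered reads and -0.38 with GAPDH. GP6, a platelet collagen receptor gene, was at 0.145 and 0.201 FPKM in control and 5.44 and 5.20 FPKM with GNE-987. ITGA2B, the integrin subunit of platelets, was at 0.485 and 0.472 FPKM in control and 3.71 and 4.27 FPKM with GNE-987, and GP5 at 0.0246 and 0 FPKM in control and 4.54 and 3.85 FPKM with GNE-987. GP6, ITGA2B and GP5 averaged under 0.5 FPKM in control, so that they had to differ and their calls support nothing. PF4, SELP, CLEC1B and GP1BB were listed at 0 in all libraries, and the summed level of the 17 genes was 3.83 and 4.23 FPKM in control and 19.6 FPKM in both treated libraries.

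Of the 15 granulocyte and promyelocyte markers, 8 were tested, and 4 of these averaged at least 0.5 FPKM in both groups, of which AZU1 and LYZ were higher and 0 lower by limma. The log2 fold change of LYZ, 1.92, was 0.12 with GAPDH. ITGAM, MPO and CEBPE passed the filter only through the treated libraries and CD33 only through the control ones. ITGAM, the CD11b integrin, was listed at 0 and 0.0318 FPKM in control and was at 56.8 and 58.0 FPKM with GNE-987. MPO was at 11.8 and 11.3 FPKM with GNE-987, and AZU1 rose from 2.07 and 2.10 to 12.6 and 10.9 FPKM, a log2 fold change of 2.43 that was 0.62 with GAPDH. CFD was at 28.9 and 26.5 FPKM in control and at 23.7 and 30.2 FPKM with GNE-987, with overlapping groups. The part of these genes in the fall of the erythroid factors was not tested.

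**Figure D5:**
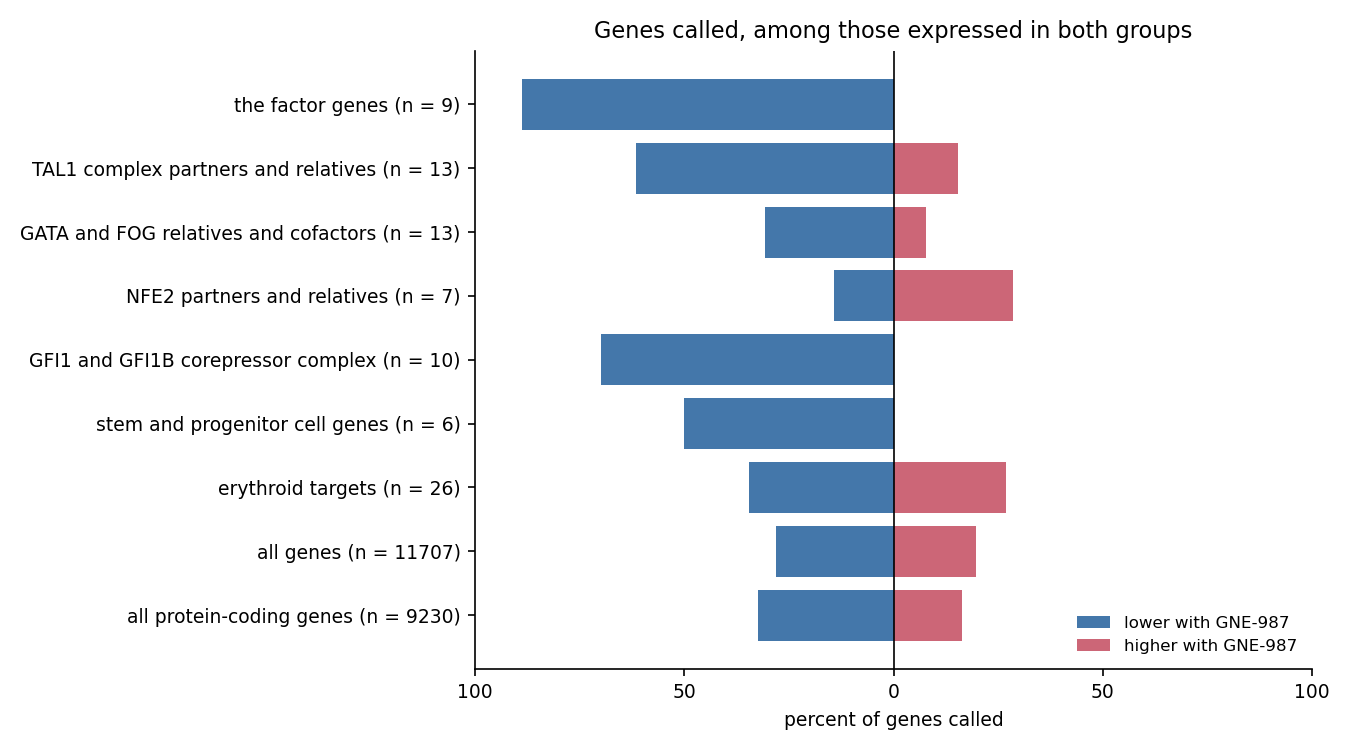
Percent of genes called lower (left of 0) or higher (right of 0) with GNE-987 (x axis), among genes of at least 0.5 FPKM on average in both groups, in the factor genes, in 6 lists of related genes and among all genes and protein-coding genes (y axis, n is the number of genes). The factor genes (8 of 9 lower) and the corepressors of GFI1B (7 of 10 lower) hold no gene called higher, nor do the 6 stem and progenitor cell genes, and the erythroid list holds 9 lower and 7 higher of 26.

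For 3 of the factors, the protein-coding genes with the most similar pattern over the 4 libraries were sought among 3404 genes averaging 10 FPKM or more, by the Euclidean distance between centred log2(FPKM + 0.1) values. Nearest to GATA1 was UBL4A at a distance of 0.131. UBL4A was at 50.04 and 52.1 FPKM in control and 6.23 and 5.69 FPKM with GNE-987. For TAL1 the nearest were G3BP1 at 0.0152 and COPA at 0.0432, and for KLF1 TENT2 at 0.0359 and C6orf136 at 0.0511. With 4 libraries in 2 groups, the distance mostly reflects the size of the fold change.

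Genes that overlap a factor gene or lie within 5 kb of it were read in the same way, since nothing in the sources used here says whether the counting used strand, and reads of a gene and an antisense partner then cannot be told apart. GATA2-AS1, which overlaps GATA2 on the opposite strand, fell with it, from 9.85 and 10.04 to 4.19 and 4.71 FPKM (log2 fold change -1.14). ZFPM1-AS1, opposite to ZFPM1, was at 3.20 and 4.07 FPKM in control and at 0 and 0.464 FPKM with GNE-987. TSC1, which overlaps GFI1B on the opposite strand, was at 1.00 and 1.25 FPKM in control and 0.476 and 0.560 FPKM with GNE-987 and missed the fold threshold at -0.98.

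Most neighbours of KLF1 and NFE2 went another way with the deposited scaling. GCDH, 3958 bases before KLF1 on the opposite strand, rose from 13.4 in both control libraries to 26.7 and 28.7 FPKM, a log2 fold change of 1.04 that lay close to the threshold. The long noncoding RNA gene ENSG00000267735, which lies 333 bases past the 3′ end of KLF1 on the opposite strand, rose from 1.62 and 2.38 to 14.4 and 9.19 FPKM. COPZ1, which starts 186 bases from the 5′ end of NFE2 on the opposite strand, was at 37.7 and 34.6 FPKM in control and 49.1 and 45.7 FPKM with GNE-987, a log2 fold change of 0.39 beside -4.12 for NFE2. DNASE2, past the 3′ end of KLF1 (log2 fold change 0.82), and the antisense genes ENSG00000226252 at TAL1 (0.54) and ENSG00000258344 at NFE2 (-0.41) did not pass the thresholds. Scaling to the total of recovered reads would shift these log2 fold changes by about -0.785. GCDH would then miss the fold threshold and COPZ1 would turn negative, so that these rises depend on the scaling. No other annotated gene of the expression table overlapped GATA1, LDB1 or GFI1 or lay within 5 kb of them.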

How the data were processed

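RNA-seq of 4 libraries, 2 control and 2 GNE-987-treated, was analysed. The authors filtered the reads and mapped them with HISAT, and deposited 1 FPKM value per Ensembl gene and library. The submitters' processing notes name HISAT2 2.0.5 and hg38. The program that counted the reads, its use of strand and the annotation are not given in the sources used here. Groups came from the labels, and dose and time from the study's description of the experiment. Of the 58735 identifiers, 58207 (99.1%) were found in GENCODE release 44, which gave symbols and positions on GRCh38.

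The 16668 genes that averaged 0.5 FPKM or more entered limma 3.58.1 (R 4.3.3) on log2(FPKM + 0.1), by a linear model with empirical Bayes moderation and an intensity trend. Fold changes on this scale understate the change of low genes. With limma, genes were called at an unadjusted P value below 0.05 together with a fold change past 2, as in the study's methods, and adjusted P values (Benjamini-Hochberg) cover all tested genes. Plain fold values are ratios of mean FPKM. Ratios between genes were tested by refitting after subtracting the denominator gene in each library. All genes of such a refit share the error of the denominator gene, so that its P values can be too small. The main limma fit with its calls and the refit on ratios were tested on simulated data.

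Deposited values step by the worth of a read, so reads could be recovered with a tolerance of 0.01. With the GENCODE exon length, reads were whole in all libraries for 17431 of 32895 detected genes (53.0%), and for the others another length was searched, which is a weaker basis. These reads served for depth, for scaling to their total and for limma-voom. The depth limits counting error only.

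The 10 genes, the lists, the gene pairs and the rule for named genes were chosen with earlier results of these data known. Named were the 10 genes, the genes of the pairs, the 4 genes of highest mean FPKM in each list, the 2 nearest patterns of 3 factors, neighbours within 5 kb and GAPDH. Any other gene was named with its values already seen. Some items that the rule names are not reported here. The pair of GFI1B and GFI1 could not be fitted, since GFI1 was below the filter. Alternatives were other scalings, pseudocounts, filters, a replicate block, calls by adjusted P values, testing against a 2-fold change, limma-voom and leaving out each library.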

Additional observations from a re-analysis of the deposited data

How the results depend on the processing

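Of the 9 tested factor genes, 8 were called lower with the deposited scaling and 8 to 9 under 16 alternatives, and 0 were called higher under each. The change from 8 to 9 came from TAL1, with log2 fold changes of -2.58 with scaling to GAPDH, -1.52 with the total of recovered reads and -1.53 with limma-voom on those reads, in place of -0.74. Without each library in turn, 8 were called lower, and the largest unadjusted limma P value of any of the 9 was 0.0349, for TAL1. The lists of related genes were less stable. Of their genes 34 were called lower and 26 higher, which became 64 and 12 with scaling to GAPDH, while the higher ones became 16 with the total of recovered reads and 16 with limma-voom, and the ranges without each library were 33 to 35 and 21 to 26. Among all calls, the share of lower genes was 42.5% with the deposited scaling, 56.3% with quantile normalization, 61.5% with the total of recovered reads, 61.1% with limma-voom and 76.3% with GAPDH. Between genes, the ratio of LMO2 to LDB1 (-0.72 to -0.41 without each library) missed the threshold without control replicate 1 or 2, and that of GATA1 to ZFPM1 (-0.73 to -0.30) without control replicate 2 and at -0.46 with a pseudocount of 0.01. The cause was not tested. The other 4 ratios kept direction and call under 8 alternatives each. With a replicate block in the fit, 8 of the 9 genes were called lower, and no call named here changed. Deviations of libraries with the same number correlated at 0.00537 across genes. This value comes from 4 libraries and cannot show whether libraries of the same number were prepared together. With 2 libraries per group, spread is estimated mainly across genes, and values under GNE-987 rest on 65 to 1121 reads for the 9 genes.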
